A study of Mus musculus with 2 samples.

Results

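Peaks with an extreme deposited score, together with all peaks on mitochondrial DNA, were taken from 2 lists of CTCF peaks, 1 from mouse embryonic stem (ES) cells and 1 from mouse embryonic fibroblasts (MEFs). A peak was chosen when its score was 400 or more, or when it lay on the mitochondrial genome. The rule took 139 of 44424 ES peaks (0.313%) and 109 of 53736 MEF peaks (0.203%), or 248 of 98160 in all. The score itself made 131 of the ES choices and 91 of the MEF choices. The ES cells are labelled with the genetic background Bl3.10 and C57BL and the MEFs with C57BL6, and the labels name no ES line, passage or embryonic age. Both were grown in the same serum-containing DMEM medium, carry no stated treatment, and were precipitated with the same Millipore antibody against CTCF. Each cell type is represented by 1 library, so the effects of cell type, strain and library preparation cannot be told apart and no p-value was computed. Every interval below is a 95% Wilson interval that covers counting error only and treats neighbouring peaks as independent. The depth of the libraries is unknown, and no input or control-antibody library was analysed here.

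CTCF is a zinc-finger protein of the nucleus that binds a long DNA motif at insulators and loop anchors. Chromatin immunoprecipitation followed by sequencing also recovers DNA that was not bound by the protein, and some sequences do so in nearly every experiment. Ribosomal DNA, which codes for the RNA of the ribosome, and satellite repeats, which fill the heterochromatin around mouse centromeres, exist in many more copies in the cell than in the assembled genome, so that reads of many copies pile up on the few assembled ones. Mitochondrial DNA is a small circle kept in many copies outside the nucleus. The score in the files is not defined, and it is used here only to describe peaks and to rank them within their own list. Positions are on build mm9 and count from 1, with 1 added to the deposited start. No gene or repeat annotation of that build was used, so no gene is named.

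Most of the chosen peaks lay on autosomes and outside the 2 repeat windows that were looked at. The autosomal share was below that of the whole lists only with the mitochondrial peaks counted, all of which the rule adds. In the ES list 122 were autosomal (87.8%, interval 81.3 to 92.2), 15 mitochondrial and 2 on unplaced sequence, and none was on X or Y. In the MEF list 85 were autosomal (78.0%, 69.3 to 84.7), 21 mitochondrial, 2 on unplaced sequence and 1 on X. Over all peaks, autosomes held 97.97% (ES) and 97.18% (MEF), and X held 1.81% and 2.59%. Without the mitochondrial peaks, which were chosen by position, autosomes held 98.4% (94.3 to 99.6) of the chosen ES peaks and 96.6% (90.5 to 98.8) of the chosen MEF peaks. Both intervals include the share of the whole list. Random and unplaced sequences held 0.185% of all ES peaks and 0.188% of all MEF peaks, against 1.44% (0.395 to 5.09) and 1.83% (0.505 to 6.44) of the chosen ones. Mitochondrial DNA held 0.0338% and 0.0391% of all peaks, and all of these were chosen by position. The 1 Mb windows that contain the assembled ribosomal DNA copy on chromosome 17 and the satellite block on chromosome 2 held 3 of the 122 autosomal ES peaks and 4 of the 85 MEF peaks. The other 119 and 81 were not compared with any repeat annotation, so whether they lie in repeats was not tested. They include the 5 ES and 8 MEF peaks near chromosome starts that are described further on. How much of the set is repeat DNA cannot be told from these values. Over all autosomal peaks, 0.280% (ES) and 0.163% (MEF) were chosen. Every autosome carried at least 1 chosen ES peak, up to 14 on chromosome 11, which with 3406 also had the most ES peaks of all. In the MEF list chromosome 19 had none among 1587 peaks, the fewest of any autosome. Chromosomes 2 and 9 had most, with 10 each among 4047 and 2933 peaks, and chromosome 2 had the most MEF peaks of all. The counts thus partly follow the number of peaks.

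The scores fell off steeply from the top of both lists. In the ES list 7 nuclear peaks scored 10000 or more, 45 scored 1000 or more without reaching that, and 72 scored below 1000. The MEF list held 6, 40 and 42 peaks in the same ranges. The median over nuclear chosen peaks was 818 in ES cells (quartiles 515.5 and 2344) and 1074 in MEFs (quartiles 564.5 and 2354), whereas the medians of the whole lists were 70 and 48. These values describe the choice, since the score was the rule.

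**Figure D1:**
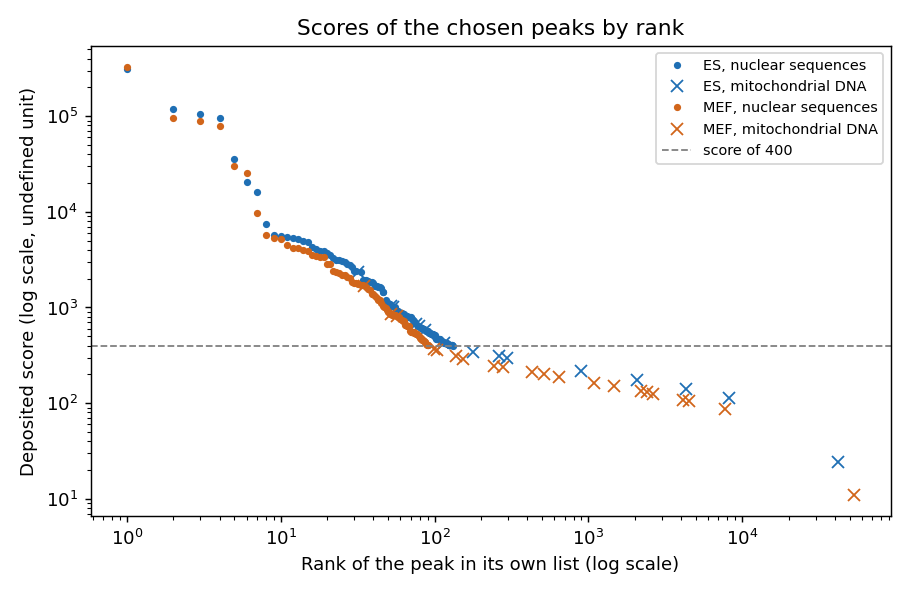
Deposited score (y axis, log scale, undefined unit) against the rank of a peak in its own list (x axis, log scale) for the chosen ES (blue) and MEF (orange) peaks; dots are peaks on nuclear sequences, crosses are mitochondrial peaks, and the dashed line is the score of 400. The lists drop from 313002 (ES) and 323957 (MEF) at rank 1 to 7394 and 5682 at rank 8, and the mitochondrial peaks run on from rank 32 (ES) and 35 (MEF) to far below the line.

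The limit of 400 cut through a continuous range. Just inside it in the ES list were peaks on chromosome 11 at 11831099 to 11831497 (score 400), on chromosome 18 at 43480952 to 43481350 (score 402) and on chromosome 4 at 43990801 to 43991199 (score 403). Just outside were peaks on chromosome 5 at 130541413 to 130541811 (score 397), on X at 84483510 to 84483908 (score 397) and on chromosome 2 at 102652936 to 102653334 (score 395). The X peak was the ES partner of the only chosen MEF peak on X, at 84483514 to 84483912, which scored 464. In the MEF list the nearest inside were on chromosome 8 at 125951687 to 125952085 (score 403), on chromosome 11 at 83988353 to 83988751 (score 405) and on chromosome 7 at 150253317 to 150253715 (score 410). The nearest outside were on chromosome 10 at 36854709 to 36855107 (score 390), on chromosome 7 at 108561186 to 108561584 (score 389) and on chromosome 8 at 125956990 to 125957388 (score 384). The chromosome 5 peak had no partner, and the partners of the other borderline peaks ranged in score from 60 to 1008.

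Nearly all chosen peaks had a partner in the other cell type. Of the ES peaks, 130 of 139 overlapped a MEF peak (93.5%, interval 88.2 to 96.6), where 26.1% of all ES peaks did. Of the MEF peaks, 107 of 109 overlapped an ES peak (98.2%, 93.6 to 99.5), where 21.6% of all MEF peaks did. Without the mitochondrial peaks the shares were 94.4% (88.8 to 97.2) and 98.9% (93.8 to 99.8). The nuclear peaks that scored at least 200 but below 400 overlapped in 62.1% of 1131 ES cases (59.2 to 64.9) and in 73.1% of 417 MEF cases (68.7 to 77.2), below the intervals of the nuclear peaks at 400 or more. When the other list was moved by 10 kb, 4.84% of the nuclear ES set (2.24 to 10.2) and 5.68% of the nuclear MEF set (2.45 to 12.6) still overlapped, beside 3.2% of all ES peaks and 2.63% of all MEF peaks.

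The partners also scored high, although the rule looked at each list on its own. An overlapping partner with a score of 400 or more was found for 78 of 124 nuclear ES peaks (62.9%, 54.1 to 70.9) and for 77 of 88 nuclear MEF peaks (87.5%, 79.0 to 92.9). Over all peaks this held for 0.216% of the ES list and 0.236% of the MEF list. Among the 20 top-ranked peaks of each list 18 overlapped, among the top 50 there were 43, and among the top 100 there were 77.

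**Figure D2:**
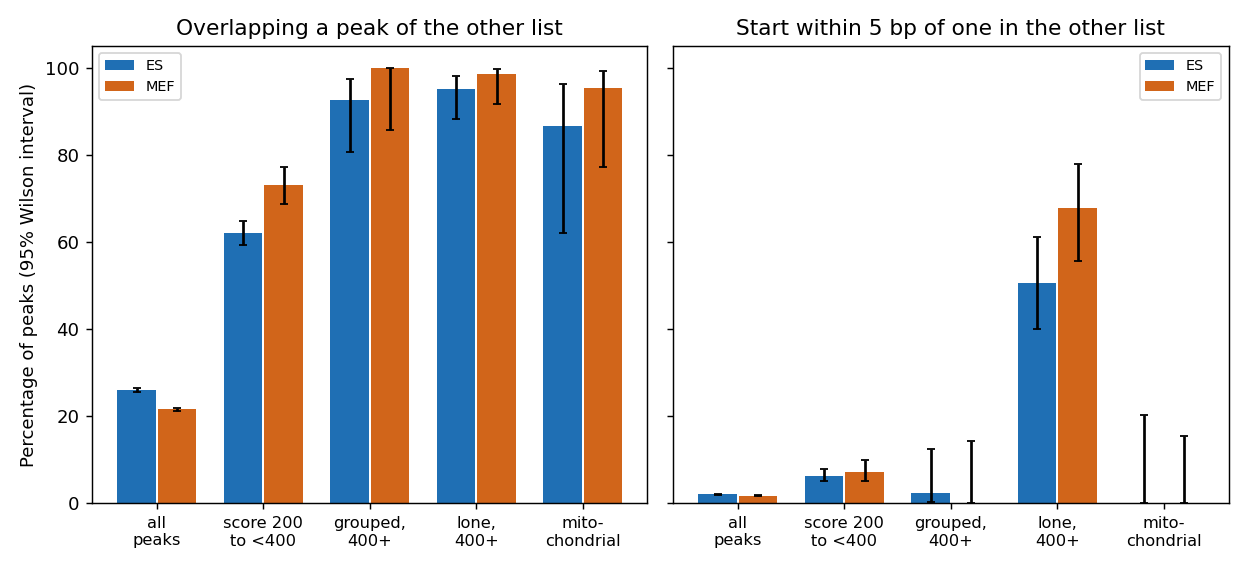
Percentage of peaks (y axis, bars with 95% Wilson intervals) that overlap a peak of the other list (left) or start within 5 bp of one (right), for all peaks, nuclear peaks scored from 200 to below 400, grouped and lone nuclear peaks scored 400 or more, and mitochondrial peaks, in ES cells (blue) and MEFs (orange). Overlap is high in all 3 chosen classes, whereas starts within 5 bp are frequent in the lone class, at 50.6% (ES) and 67.7% (MEF).

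Many of the chosen peaks lay at the same bases in both lists. Identical start and end coordinates were found for 21 ES peaks (15.1%, 10.1 to 22.0), where 0.241% of all ES peaks had them, and for 22 MEF peaks (20.2%, 13.7 to 28.7), where 0.199% of all MEF peaks had them. In total 107 peaks were identical between the lists, and 22 of these (20.6%) belonged to the chosen set. Starts within 5 bp of a partner were found for 43 ES peaks (30.9%, 23.9 to 39.05) and 44 MEF peaks (40.4%, 31.6 to 49.8), beside 2.09% and 1.73% of all peaks. Among nuclear peaks scored from 200 to below 400, 6.37% of the ES peaks (5.09 to 7.94) and 7.19% of the MEF peaks (5.09 to 10.1) started that close to a partner.

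The close matches were concentrated in peaks with no other chosen peak nearby. A nuclear peak was called grouped when another chosen peak of its list started within 10 kb, and lone otherwise. A lone peak could still have a neighbour of lower score. Such a neighbour within 10 kb was found for 37 of 83 lone ES peaks (44.6%) and 32 of 65 lone MEF peaks (49.2%). The comparison of the position of partners between these classes was chosen after the values had been seen. In ES cells 83 nuclear peaks were lone and 41 grouped, and in MEFs 65 were lone and 23 grouped. All identical peaks were lone ones, which made 25.3% of the lone ES peaks (17.2 to 35.6) and 33.8% of the lone MEF peaks (23.5 to 46.0). None of the 41 grouped ES peaks (upper bound 8.57%) and none of the 23 grouped MEF peaks (upper bound 14.3%) was identical. The median distance between the starts of partners was 4 bp for lone ES peaks (quartiles 0 and 38.5 bp) and 108 bp for grouped ES peaks (quartiles 45.25 and 169 bp). It was 2 bp for lone MEF peaks (quartiles 0 and 8.25 bp) and 87 bp for grouped MEF peaks (quartiles 32.5 and 130.5 bp). Overlap as such did not separate the classes beyond counting error. It was 95.2% (88.3 to 98.1) for lone and 92.7% (80.6 to 97.5) for grouped ES peaks, and 98.5% (91.8 to 99.7) for lone and 100% (85.7 to 100) for grouped MEF peaks.

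Lone peaks also had the higher scores, with a median of 914 against 568 in ES cells and 1379 against 761 in MEFs, and the contrast was therefore read within score ranges. Among ES peaks of 1000 or more, 31 of 41 lone peaks (75.6%, 60.7 to 86.2) and 0 of 11 grouped peaks (upper bound 25.9%) started within 5 bp of a partner. Among ES peaks below 1000 the counts were 11 of 42 (26.2%, 15.3 to 41.1) and 1 of 30 (3.33%, 0.591 to 16.7), and here the intervals overlap slightly. Among MEF peaks of 1000 or more the counts were 31 of 40 (77.5%, 62.5 to 87.7) and 0 of 6 (upper bound 39.03%), and below 1000 they were 13 of 25 (52.0%, 33.5 to 70.0) and 0 of 17 (upper bound 18.4%). With the split made by a neighbour of any score within 10 kb, 32 of 46 chosen ES peaks without one (69.6%) and 11 of 78 with one (14.1%) started within 5 bp. In MEFs the counts were 26 of 33 (78.8%) and 18 of 55 (32.7%). Identical pairs then included 3 of the 78 ES and 8 of the 55 MEF peaks with a neighbour, so their absence from grouped peaks depends on the score limit. The remaining nuclear peaks were split in this second way. Those without a neighbour were at 1.58% (ES) and 1.31% (MEF) within 5 bp, and those with one at 2.43% and 1.99%. Overlap itself was also rarer without a neighbour, at 19.3% against 32.6% (ES) and 15.2% against 27.8% (MEF). Among the overlapping ones, the median distance between starts was 40 bp without and 50 bp with a neighbour in ES cells, and 39 and 51 bp in MEFs.

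**Figure D3:**
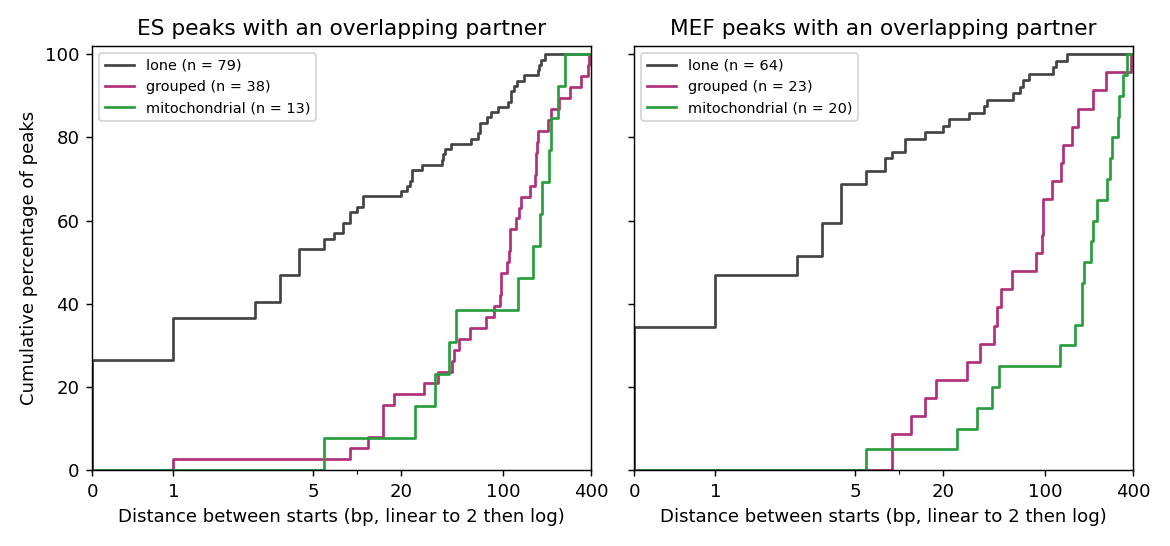
Cumulative percentage of peaks (y axis) against the distance between the start of a chosen peak and that of its overlapping partner (x axis, bp, linear to 2 and logarithmic above), for ES (left) and MEF (right) peaks with a partner. The lone peaks (grey) have medians of 4 bp (ES) and 2 bp (MEF), whereas the grouped (magenta) and mitochondrial (green) peaks have medians between 87 and 195.5 bp.

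Small differences in position mostly had the MEF peak on the right. Chosen peaks of both lists whose starts lay within 10 kb of each other were joined into loci, which gave 104 loci outside mitochondrial DNA. The highest peaks of the 2 lists had identical coordinates at 22 of these loci, and a further 22 were 1 to 5 bp apart. Of these, the MEF start was the higher at 18 and the lower at 4. Over all loci it was the higher at 55 and the lower at 24, counting highest peaks up to 4098 bp apart. By nearest overlapping partner, the MEF start was the higher for 57 nuclear chosen ES peaks and the lower for 39. These counts were 40 and 18 for lone ES peaks and 17 and 21 for grouped ones. Over all 11595 overlapping ES peaks the nearest MEF start was the higher in 5741 cases and the lower in 5747.

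The 20 loci with the highest scores were found in both lists at nearly the same place, and 19 of them were autosomal. Their highest peaks ranked no lower than 24 (ES) and 26 (MEF). Starts were identical at 8, within 5 bp at 13 and within 20 bp at 17 of the 20. The top one, on chromosome 2, started at 90256534 in ES cells (score 313002) and 4 bp further on in MEFs (score 323957). Identical coordinates marked the next 3, on chromosome 9 at 101020502 to 101020900 (scores 118985 in ES cells and 95818 in MEFs), on chromosome 3 at 55976244 to 55976642 (104142 and 79179) and on chromosome 1 at 170709615 to 170710013 (96349 and 88214). These 4 held ranks 1 to 4 in both lists and no further peak of any score lay within 10 kb of them, apart from 1 MEF peak near the chromosome 3 position.

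Below these 4 came the ribosomal DNA copy and the satellite block, which are described further on, and then 2 loci with several peaks each. On chromosome 6 the highest ES peak was at 3151288 to 3151686 (score 16041) and the highest MEF peak at 3151229 to 3151627 (score 9707), both at rank 7. On chromosome 5 the highest ES peak was at 143665014 to 143665412 (score 7394) and the highest MEF peak at 143665403 to 143665801 (score 5682), both at rank 8 and 389 bp apart. These 2 loci and the satellite block were the only ones among the 20 with more than 1 chosen peak in a list.

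The other loci among the 20 were single peaks again. On chromosome 11 identical peaks lay at 108872985 to 108873383 (scores 5778 in ES cells and 5186 in MEFs) and at 32903506 to 32903904 (4098 and 3490). Chromosome 9 had an identical pair at 123370993 to 123371391 (5429 and 3374). Chromosome 3 had one at 31056966 to 31057364 (3893 and 2846), and chromosome 12 had one at 58345408 to 58345806 (3532 and 2390). All 5 pairs kept ranks between 9 and 22 in both lists.

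A few of the 20 differed by small steps. ES and MEF starts were 1 bp apart on chromosome 13 (ES 97960338 to 97960736, scores 5224 and 3372) and on chromosome 16 (ES 57391489 to 57391887, scores 3685 and 3977). They were 3 bp apart on chromosome 3 (ES 5860498 to 5860896, scores 3854 and 3543) and 4 bp apart on chromosome 18 (ES 49859154 to 49859552, scores 4802 and 4554). On an unplaced sequence the distance was 11 bp (ES 5249205 to 5249603, scores 3108 and 4176), and on chromosome 5 it was 20 bp (ES 147072535 to 147072933, scores 5295 and 4190). At all of these the MEF start was the higher one. The locus on chromosome 2 went the other way, with the ES peak at 22600321 to 22600719 (score 4310) and the MEF peak 119 bp to its left (score 2179).

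The other positions with identical coordinates had lower scores but were spread in the same manner over many chromosomes. Chromosome 9 held such peaks at 33223319 to 33223717 (scores 3159 in ES cells and 2831 in MEFs), at 110183624 to 110184022 (2976 and 2342) and at 44924934 to 44925332 (1919 and 1793). Chromosome 4 held them at 120393336 to 120393734 (2631 and 1708), at 128458078 to 128458476 (1848 and 2104) and at 102628898 to 102629296 (913 and 647). Chromosome 10 held them at 68740245 to 68740643 (2327 and 1528) and at 67910716 to 67911114 (1638 and 1391). With these 3 and the 2 among the top loci, chromosome 9 had 5 identical pairs among the chosen peaks, the most of any chromosome. It held 11 of the 122 autosomal chosen ES peaks and 2548 of all 43523 autosomal ES peaks.

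The remaining identical pairs were found 1 to a chromosome, except that chromosome 1 also held one of the top 4. They lay on chromosome 14 at 20110492 to 20110890 (ES score 1942 and MEF score 840), on chromosome 8 at 8595613 to 8596011 (1591 and 1379) and on chromosome 16 at 17222316 to 17222714 (1441 and 1324). Lower down they lay on chromosome 1 at 102076566 to 102076964 (875 and 722) and on chromosome 13 at 118356858 to 118357256 (802 and 659). The last, on chromosome 18 at 85867452 to 85867850, was chosen through its MEF score of 482 alone, and its ES score was 358. No identical pair was on X, on unplaced sequence or on mitochondrial DNA.

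Ranks within the lists went together over the chosen peaks. For the 117 nuclear ES peaks with a partner, Spearman's rank correlation between the ES rank and the rank of the nearest MEF peak was 0.91, and for the 87 nuclear MEF peaks with a partner it was 0.93. With 1 peak per list and locus it was 0.90 over 101 nuclear loci. The points share 1 library per axis, neighbouring peaks share a sequence, and the scores of the set span a far wider range than those of other peaks. In the 702 nuclear ES peaks scored from 200 to below 400 that had a partner, the rank correlation was 0.14, over a narrower range of scores. The median MEF rank of the partners was 63 for the chosen nuclear ES peaks (quartiles 30 and 117) and 7689 for that lower class (quartiles 1998 and 24432). Of the partners of the chosen nuclear ES peaks, 104 of 117 were among the top 1% of the MEF list (537 peaks). Of the partners of the chosen nuclear MEF peaks, 81 of 87 were among the top 1% of the ES list (444 peaks).

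**Figure D4:**
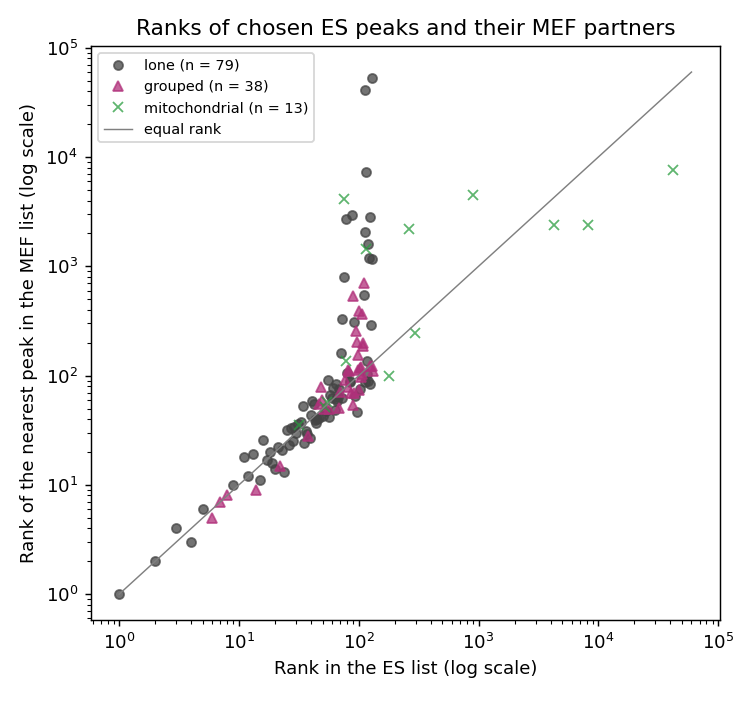
Rank of chosen ES peaks in the ES list (x axis, log scale) against the rank of their overlapping MEF peak in the MEF list (y axis, log scale), for lone (circles), grouped (triangles) and mitochondrial (crosses) peaks; the line marks equal ranks. Ranks 1 to 50 follow the line closely, and further down some partners rank far lower, down to 53204.

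Partners of much lower rank were found for a number of ES peaks, and the 3 lowest belonged to peaks near the limit of the choice. On chromosome 3 the ES peak at 105574449 to 105574847 (score 406) overlapped a MEF peak of score 12, at rank 53204. On chromosome 10 the ES peak at 79274961 to 79275359 (score 433) overlapped a MEF peak of score 34, at rank 41221. Another, on chromosome 3 at 126546737 to 126547135 (score 429), overlapped a MEF peak of score 88. Higher up, the ES peak on chromosome 11 at 100818104 to 100818502 (score 640, rank 78) had a nearest MEF peak at rank 2696.5. A further MEF peak at 100817929 to 100818327 (score 183, rank 715) overlapped it too. The ES peak on chromosome 9 at 117161105 to 117161503 (score 570, rank 88) had a nearest MEF peak at rank 2955.5. The ES peak on chromosome 3 at 61962988 to 61963386 (score 689, rank 75) had one at rank 794. In the other direction the partner of lowest rank belonged to the MEF peak on chromosome 12 at 113790211 to 113790609 (score 447), and it still had an ES score of 195 and rank 1384. No chosen MEF peak on nuclear sequence thus had a partner below ES rank 1384.

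Of the 104 nuclear loci, 69 held chosen peaks of both lists, 29 of the ES list only and 6 of the MEF list only. A MEF peak of lower score lay inside 26 of the 29, with a median score of 229.5 for the highest one there (range 12 to 390), and an ES peak lay inside all 6 of the others (median 292.5, range 195 to 397). The ES scores of the 29 loci were between 402 and 1008 with a median of 446, and the median over all nuclear chosen ES peaks was 818. Without any MEF peak inside were 3 ES loci. They lay on chromosome 8 at 19982690 to 19983088 (score 705), where the nearest MEF peak started 2.03 kb away, on chromosome 4 at 151547118 to 151547516 (score 408, 1.48 kb away) and on chromosome 7 at 38391482 to 38391880 (score 416, 10.8 kb away). The chromosome 7 peak was the only chosen peak of either list without a peak of the other list within 10 kb.

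The remaining nuclear peaks without a partner stood next to a peak of the other list. The ES peak on chromosome 5 at 143665934 to 143666332 (score 5630) lay 531 bp from a MEF peak of score 5682. On chromosome 6 the ES peak at 127075623 to 127076021 (score 861) started 399 bp from a MEF peak. This was exactly 1 peak width as the starts were read here, so its lack of overlap rests on that reading. On chromosome 17 the ES peak at 35971908 to 35972306 (score 534) lay 463 bp from a MEF peak. On an unplaced sequence the ES peak at 5495702 to 5496100 (score 908) and the MEF peak at 5496130 to 5496528 (score 1103) were 428 bp apart, and a further ES peak of score 342 started 403 bp to the right of the MEF peak. At these places both lists had calls that were offset from each other.

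Grouped peaks marked 16 nuclear loci of 0.678 to 4.98 kb. Over all peaks, another peak of the same list lay within 10 kb of 49.7% of ES peaks and 49.8% of MEF peaks. Of the nuclear chosen peaks, 62.9% (54.1 to 70.9) in ES cells and 62.5% (52.1 to 71.9) in MEFs had such a neighbour of any score. These shares were close to those of the nuclear peaks scored from 200 to below 400, at 63.2% (60.4 to 66.0) and 68.3% (63.7 to 72.6). Another chosen peak lay within 10 kb of 33.1% of the nuclear ES set (25.4 to 41.7) and 26.1% of the nuclear MEF set (18.1 to 36.2). Counting mitochondrial peaks, which all lie within 10 kb of another, the shares were 40.3% (32.5 to 48.6) and 40.4% (31.6 to 49.8).

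At 9 of the 16 loci both lists had at least 2 chosen peaks. The locus on chromosome 5 from 143665014 to 143668558 held 4 ES peaks with scores, from left to right, of 7394, 5630, 3295 and 562, and 3 MEF peaks with scores of 5682, 3907 and 836. The scores fell from left to right in both lists, although the peaks were not at the same bases. On chromosome 11 from 70465364 to 70468187 there were 3 in each list, with ES scores of 1441, 1081 and 497 and MEF scores of 833, 951 and 544. There the left peak was the highest in ES cells and the middle one in MEFs. Chromosome 6 from 127075147 to 127080119 held 5 ES peaks with scores of 511, 861, 471, 470 and 791 and 2 MEF peaks with scores of 483 and 557. The highest ES peak was near the left end of this locus and the highest MEF peak at its right end.

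Further groups of this kind were shorter or lower. Chromosome 8 from 125951592 to 125956571 held 4 ES peaks (scores 664, 612, 469 and 611) and 2 MEF peaks (403 and 505). The group on chromosome 2, from 117950956 to 117952918, had 3 ES peaks (1202, 1121 and 529) and 2 MEF peaks (511 and 761). Chromosome 11 from 94812949 to 94814345 held 2 in each list (575 and 800 in ES cells, 566 and 863 in MEFs), and so did chromosome 16 from 37882602 to 37883747 (541 and 1865, 560 and 2027). In the last 2 the right peak was the higher in both lists. At 6 of the 16 loci only ES peaks reached 400. A MEF peak lay inside each of these, with highest scores of 246 to 363 and MEF ranks of 102.5 to 249.5. At the 1 locus with MEF peaks only, on chromosome 9 from 3023277 to 3025731, the highest ES score was 363.

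The assembled ribosomal DNA copy carried a single extreme peak in each list. On chromosome 17 the ES peak at 39982654 to 39983052 scored 35434 and held rank 5, and the MEF peak at 39982663 to 39983061 scored 25417 and held rank 6. Their starts were 9 bp apart. In the surrounding window from 39 to 40 Mb there was 1 other ES peak (score 120) and there were 6 other MEF peaks (scores 40 to 75), and none of these overlapped a peak of the other list. No other peak of either list lay within 10 kb of this one, so the ribosomal DNA signal was called as 1 isolated interval and not as a block. Annotation of the part of the repeat it falls in was not used here.

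The satellite block on chromosome 2 carried several peaks over 4.55 kb. Its highest peak was at 98506714 to 98507112 in ES cells (score 20620, rank 6) and at 98506723 to 98507121 in MEFs (score 30124, rank 5), again with starts 9 bp apart. The left edge of the block had a peak at 98502570 to 98502968 in ES cells (score 4931, rank 14) and at 98502657 to 98503055 in MEFs (score 5315, rank 9), 87 bp apart. Between them ES cells had peaks of score 214 and 262, and MEFs had 1 of score 556 at 98503805 to 98504203. The 2 outer peaks were the highest of the block in both lists. Outside the block the window from 98 to 99 Mb held 1 other ES peak and 9 other MEF peaks, with scores of 24 to 82.

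Chosen peaks were also found close to the start of the assembled chromosomes. The mouse chromosomes have their centromere at 1 end, and the first peaks of the lists lay just past 3 Mb. Before 4 Mb of an autosome there were 5 chosen ES peaks (3.60%, 1.55 to 8.14) and 8 chosen MEF peaks (7.34%, 3.77 to 13.8), where 0.808% of all ES peaks and 0.756% of all MEF peaks lay. This limit was set after the positions had been seen. The peaks were on chromosomes 6, 8, 9 and 12. On chromosome 12 the ES peak at 3109814 to 3110212 scored 852 and the MEF peak at 3109792 to 3110190 scored 987. On chromosome 8 the ES peak at 3754283 to 3754681 scored 1782 and the MEF peak, 78 bp to the right, scored 1188. On chromosome 9 the ES peak at 3258658 to 3259056 scored 1898 and the MEF peak, 2 bp to the right, scored 1826. All 5 ES peaks had a chosen MEF partner.

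The first 38.3 kb of peaks on chromosome 9 formed a dense group that touched the set. It held 29 ES peaks between 3000061 and 3038373 and 28 MEF peaks between 3000019 and 3038314. Of these, 26 ES peaks (89.7%, 73.6 to 96.4) and 25 MEF peaks (89.3%, 72.8 to 96.3) overlapped one of the other list, with median distances of 27 and 24 bp. Most were not extreme in score, with medians of 114 (ES) and 106 (MEF). No ES peak there reached 400, the highest being 363, whereas 3 MEF peaks did, at 3002039 to 3002437 (score 645), at 3025333 to 3025731 (score 642) and at 3023277 to 3023675 (score 549). The ES partners of these 3 scored 227, 257 and 363. Spearman's rank correlation was 0.43 over the 26 ES peaks with a partner and 0.29 over the 25 MEF peaks with one, as a description of neighbouring peaks that overlap one another in part. Most peaks of the block had a partner in the other list, but how often peaks this dense would overlap by chance was not examined. Their ranks cannot be set against those of the extreme peaks, which were chosen by score.

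Mitochondrial peaks had another layout. There were 15 in ES cells and 21 in MEFs, of which 7 and 3 scored 400 or more. Their intervals covered 35.6% (ES) and 48.4% (MEF) of the span from position 1 to 16326, the end of the last ES peak. In both lists 25.05% of that span was covered. The length of the mitochondrial genome was not used and peaks were not trimmed at its end, so these are not shares of the genome. The median step between neighbouring starts was 833.5 bp in ES cells and 503.5 bp in MEFs. At that coverage 13 of 15 ES peaks and 20 of 21 MEF peaks met a partner. None had identical coordinates (upper bounds 20.4% and 15.5%), and the median distance between partners was 159 bp (ES) and 195.5 bp (MEF). The grouped nuclear peaks had no identical pairs either, unlike the lone ones. Their median distances of 108 bp (ES) and 87 bp (MEF) were smaller than those of the mitochondrial peaks.

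The 3 highest mitochondrial peaks nevertheless overlapped between the lists, with starts 6 bp apart for the first pair and 43 bp for the second. The top one was at 319 to 717 in ES cells (score 2346, rank 32) and at 325 to 723 in MEFs (score 1660, rank 35). The next was at 1664 to 2062 in ES cells (score 1048, rank 52) and at 1621 to 2019 in MEFs (score 862, rank 52). After these came 5979 to 6377 in ES cells (score 1010) and 5772 to 6170 in MEFs (score 816). This pair was 207 bp apart, more than the median distances of 159 bp (ES) and 195.5 bp (MEF). These were the 3 highest of both lists in the same order. Scores below them ran down to 24 in ES cells and 11 in MEFs, and the median scores were 345 and 200.

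The middle of the mitochondrial map was nearly empty in both lists. The widest stretch without a peak ran from 6378 to 11040 in ES cells (4.66 kb) and from 6171 to 9153 in MEFs (2.98 kb). A MEF peak wholly inside the ES gap, at 9154 to 9552, had a score of 11 and was the lowest of the mitochondrial set. Depth along the mitochondrial genome was not examined, and whether reads from it entered through the antibody was not tested.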

How the data were processed

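CTCF was mapped by chromatin immunoprecipitation and sequencing on an Illumina Genome Analyzer in 2 libraries, per the labels' protocols. The authors deposited 1 peak list per library, with a whole-number score for each peak and no header. The submitters' processing notes name build mm9. The aligner, peak caller, threshold, control, pooling and read depth are likewise not given in the sources. All peaks span 399 bp as the starts were read here.

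Peaks with a score of 400 or more and all mitochondrial peaks were chosen. Members, lists and named positions were chosen with earlier results of these data known. Overlap meant at least 1 bp and was computed from the distance between starts. The counts were checked with bedtools 2.31.1, and the method was tested on simulated data with 1000 peaks, where all 6 planted counts were recovered. Tied scores had their mean rank. Chosen peaks within 10 kb were joined into loci. The text names the 20 highest loci, all identical ones, those in the repeat windows, the 3 highest mitochondrial peaks and the 3 nearest to the limit on each side; further positions were chosen after their values were seen. Alternatives were other limits, a rank limit, no mitochondrial peaks, and other distances. Python 3.11.15 was used with matplotlib 3.10.9, scipy 1.17.1, pandas 2.3.3 and numpy 2.4.6. With 1 library per cell type there was no test and no p-value.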

Additional observations from a re-analysis of the deposited data

How the results depend on the processing

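Of 74 alternative values, 44 stayed within the interval of the value reported (for peak numbers, 1.5 times; for rank correlations, 0.1), 30 moved beyond it, and none changed sign. The number of ES peaks (139) was 292 at a score of 300 or more, 67 at 1000 or more and 229 with the highest 0.5% of ranks, and the number of MEF peaks (109) was 67 at 1000 or more and 279 with the ranks. The autosomal percentage in ES cells (87.8%) was 93.5% at 300, 76.1% at 1000 and 98.4% without mitochondrial peaks. In MEFs (78.0%) it was 65.7% at 1000, 90.7% with the ranks and 96.6% without mitochondrial peaks. All mitochondrial peaks stay in the set under the other limits, so this percentage moves with the size of the set. The overlapping percentage in ES cells (93.5%) was 83.2% at 300, 85.6% with the ranks and 85.6% with an overlap of 50% of both peaks, and in MEFs (98.2%) it was 88.5% with the ranks and 86.2% with that overlap. The identical percentage in ES cells (15.1%) was 7.53% at 300, 26.9% at 1000, 9.61% with the ranks, 30.9% within 5 bp and 43.9% within 20 bp, and in MEFs (20.2%) it was 9.32% with the ranks, 40.4% within 5 bp and 54.1% within 20 bp. The percentage with another chosen peak nearby in ES cells (40.3%) was 28.4% at 300 and 27.3% within 1 kb, and in MEFs (40.4%) it was 26.6% within 1 kb, 27.2% with the ranks and 26.1% without mitochondrial peaks. Spearman's rank correlation over the 107 chosen MEF peaks with a partner, mitochondrial ones included, was 0.92, beside 0.93 for the nuclear ones. It was 0.75 over 247 peaks with the ranks. No paired analysis was possible because there is 1 library of either kind. Depth is unknown, and its effect on scores and on the number of peaks above the limit was not tested.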
